A study of Mus musculus with 28 samples.

Results

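The genes described here encode the proteins of the mitochondrial ribosome. They were taken from the deposited expression table by symbol, as every gene named Mrps or Mrpl followed by a number and at most 1 letter. Of 40021 genes listed, 82 had a symbol starting with Mrpl or Mrps. The 4 with a pseudogene suffix (-ps) were left out, which gave 78 genes, 29 with a small-subunit symbol (Mrps) and 49 with a large-subunit symbol (Mrpl). Counts and medians by subunit follow the symbols, although the products of Mrps18a and Mrps30 sit in the large subunit and that of Mrps36 is now assigned to another complex. All 78 passed the filter on low values that left 13164 genes for testing.

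Microglia were sorted from single retinas of male Cx3cr1CreER:R26-tdTomato heterozygotes on a C57BL/6 background. In this line a tamoxifen-activated Cre recombinase, expressed from the Cx3cr1 locus of the fractalkine receptor, switches on the red fluorescent protein tdTomato, and the sort kept live cells with high tdTomato (tdTomato-hi, DRAQ7-). All mice, controls included, carried both alleles and had received topical tamoxifen for 3 days, 4 weeks earlier. Cx3cr1 is also active in other myeloid cells, so the promoter alone does not limit the label to microglia. The paper examined this by flow cytometry at peak infiltrate, 18 h after LPS. With 3 days of topical tamoxifen it reported that the label stayed specific for microglia. It also reported no significant difference in the number of labelled microglia between naive and peak retinas. From each retina 600 cells were sorted. The 10 naive retinas were not injected. The other 18 came from eyes with endotoxin-induced uveitis (EIU), a short-lived inflammation set off by 10 ng of lipopolysaccharide (LPS, a bacterial cell-wall component) in the vitreous, and comprised 6 at 4 h, 5 at 18 h and 7 at 2 weeks. The retinas came from left and right eyes and from 2 experiments. Experiment 1 gave 6, 3, 4 and 4 retinas of the naive, 4 h, 18 h and 2-week groups, and experiment 2 gave 4, 3, 1 and 3. The labels do not tie eyes to animals, so some retinas may share a mouse, and p-values measure the spread between retinas.

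Mitochondrial ribosomes translate the messenger RNAs of the mitochondrial genome, all of which encode core subunits of the respiratory chain or of the ATP synthase. Their ribosomal RNA is made inside the organelle, while every protein component is encoded in the nucleus, made in the cytosol and imported. The small subunit holds the decoding site and the large subunit the peptidyl transferase centre. Many of these proteins descend from bacterial ribosomal proteins, and others were added in the course of mitochondrial evolution.

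Values are RPKM, read numbers corrected for transcript length and library size. Each retina had between 7510000 and 19700000 alignments. For a transcript of 847.5 bases, the median length of these genes, 1 read corresponds to 0.157 RPKM at the lowest and 0.0599 RPKM at the highest of these depths. Between 6552 and 11825 genes per retina reached 1 RPKM, and 4 retinas had fewer than 8000 such genes, namely naive replicates 3 and 4, EIU 18 h replicate 4 and EIU 2-week replicate 1. All 8 microglial marker genes had a group median of at least 1 RPKM in every group. At 18 h, 3 of the 8 microglial markers were called lower than in naive retinas, and 2 at 4 h. Summed markers of neutrophils, monocytes, lymphocytes and endothelium were at or under 83.0 RPKM in every retina, against at least 4483 RPKM for the microglial markers. The summed monocyte markers had a median of 0.529 RPKM in naive retinas and 8.43 RPKM at 18 h (highest 49.7). Those of neutrophils had medians of 17.7 and 13.1 RPKM and those of lymphocytes 33.4 and 34.2 RPKM. S100a8 and S100a9, 0 in every naive retina, reached 9.24 and 5.15 RPKM at 18 h. The part of such cells in the values was not tested. Erythrocyte markers reached 735 RPKM at 4 h and at most 67.9 RPKM in the other groups, and none of the 4 tested was called at 4 h (median log2 fold change 1.52, 4 of 4 above 0). Transcripts listed as markers of rod photoreceptors and Müller glia were present in all groups. Their summed medians were 2596 and 1806 RPKM in naive retinas, 3711 and 1263 RPKM at 4 h and 1781 and 1004 RPKM at 18 h. Most of the Müller glia sum was Apoe, with medians of 1658, 1155 and 955 RPKM in these groups. Naive medians were 101 RPKM for Glul, 11.1 for Slc1a3, 7.79 for Dkk3, 7.51 for Rlbp1, 2.28 for Aqp4 and 1.24 for Kcnj10. In such bulk samples, fewer cells of a type and less RNA per cell cannot be told apart.

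The 78 genes lie on 17 chromosomes. In the GENCODE annotation of GRCm38, 18 of them (23.1%) have a protein-coding neighbour that starts on the other strand within 1000 bases upstream, an arrangement found for 6.8% of all 21951 protein-coding genes. These are 6 genes of the small and 12 of the large subunit. Exons of 28 members overlap a gene on the opposite strand, among them Mrpl46 and Mrps11, which overlap each other. The libraries do not keep strand, so reads in such overlaps cannot be assigned with certainty. RefSeq promoter windows (250 bases before to 50 bases after the start, GRCm38.p6) were found for 69 members. They were searched on both strands for 3 motifs of factors known to bind promoters of mitochondrial genes, the nuclear respiratory factor NRF1 (GCGCA, any base, then GCGC), the ETS family to which GABPA belongs (CCGGAAG) and YY1 (AAGATGGC). At least 1 of the motifs was present in 43 of the 69 windows (62.3%), against 16.39% of 27025 genes with such windows. The ETS motif was found in 26 members (37.7%, all genes 9.93%), the NRF1 motif in 13 (18.8%, all genes 5.19%) and the YY1 motif in 12 (17.4%, all genes 3.19%). A match in a window is a description of its letters and not a site.

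The following windows belong to the genes on which the comparisons below turn. Mrpl52 and Mrps18b were called higher at 18 h than in naive retinas, and Mrpl57 was called higher at 18 h than at 4 h. Mrpl24 was called lower at 4 h than in naive retinas and higher at 18 h than at 4 h. They are written 5′ to 3′ on the strand of the gene, with motif letters in capitals. The windows are chr14:54426659-54426958 (plus strand) for Mrpl52, chr17:35916391-35916690 (minus strand) for Mrps18b, chr14:57825989-57826288 (plus strand) for Mrpl57 and chr3:87919294-87919593 (plus strand) for Mrpl24.
Mrpl52: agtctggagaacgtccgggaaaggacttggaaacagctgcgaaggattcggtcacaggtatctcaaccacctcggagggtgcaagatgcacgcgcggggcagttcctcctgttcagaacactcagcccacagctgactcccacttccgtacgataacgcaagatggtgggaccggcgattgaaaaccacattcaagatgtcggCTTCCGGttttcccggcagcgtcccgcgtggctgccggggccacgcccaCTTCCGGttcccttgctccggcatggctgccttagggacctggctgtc
Mrps18b: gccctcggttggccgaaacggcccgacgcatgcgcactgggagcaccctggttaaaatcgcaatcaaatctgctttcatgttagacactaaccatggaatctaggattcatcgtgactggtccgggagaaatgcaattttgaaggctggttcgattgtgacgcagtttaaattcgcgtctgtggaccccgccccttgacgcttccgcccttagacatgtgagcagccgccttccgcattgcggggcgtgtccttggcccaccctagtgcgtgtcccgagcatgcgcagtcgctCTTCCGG
Mrpl57: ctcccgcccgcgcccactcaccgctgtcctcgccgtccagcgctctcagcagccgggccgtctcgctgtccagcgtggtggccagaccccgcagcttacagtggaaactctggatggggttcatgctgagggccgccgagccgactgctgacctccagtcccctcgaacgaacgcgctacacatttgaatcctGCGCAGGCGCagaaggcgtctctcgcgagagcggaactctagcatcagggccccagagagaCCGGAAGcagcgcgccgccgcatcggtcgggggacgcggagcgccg
Mrpl24: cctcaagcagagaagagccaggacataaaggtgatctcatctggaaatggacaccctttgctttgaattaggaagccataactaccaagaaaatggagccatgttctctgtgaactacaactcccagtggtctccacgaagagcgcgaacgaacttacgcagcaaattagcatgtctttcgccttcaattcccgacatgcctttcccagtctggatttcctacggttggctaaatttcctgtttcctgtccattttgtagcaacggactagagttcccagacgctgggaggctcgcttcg
The capitals mark 2 ETS matches in Mrpl52, 1 ETS match in Mrps18b, and 1 NRF1 and 1 ETS match in Mrpl57, while none of the 3 motifs stands in the window of Mrpl24. The windows of Mrps25 and Mrps36, also called lower at 4 h, held no match. Mrps25 was, like Mrpl24, also called higher at 18 h than at 4 h. So were Mrpl18, with 1 ETS match, and Mrps16, with 2 ETS matches in 1 window and none in another. Whether the motifs go with the direction of change was not tested.

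In naive retinas, mean levels of the 78 genes ranged from 2.12 to 322 RPKM, with a median of 24.8 RPKM. The median was 20.03 RPKM over the small and 27.8 RPKM over the large subunit. The most abundant small subunit genes were Mrps33, Mrps21 and Mrps18c, and the most abundant large subunit genes were Mrpl27, Mrpl42 and Mrpl41. Naive values of Mrps33, a small-subunit protein without a bacterial counterpart, ran from 41.0 to 747 RPKM with a median of 209. Those of Mrpl42 ran from 20.7 to 551 RPKM with a median of 83.9, and naive replicates 3 to 6 held the 4 highest values of both genes. At the other end, 38 members reached 1 RPKM in every retina and 17 were listed at 0 in at least 1 retina.

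The median RPKM over all 78 genes was computed in each retina. It lay between 15.1 and 28.8 in naive retinas (median 25.2) and between 14.7 and 27.2 at 4 h (median 19.3). At 18 h it was 33.5, 36.8, 32.6, 38.8 and 31.6, and at 2 weeks it lay between 15.3 and 30.8 (median 23.5). In the deposited values every 18 h retina was above every retina of the other groups. The 18 h retinas also had larger sums of RPKM over all genes (441474 to 509597, against 298434 to 404838 in naive retinas). The sums of the 4 h retinas were 394112 to 509221. Rescaled to equal sums, the 18 h medians were 30.7, 31.1, 29.41, 30.9 and 29.1, against at most 29.40 in naive retinas and 31.7 at 2 weeks. After rescaling, 4 of the 5 remained above every naive retina and 0 above every 2-week retina. The rescaled 4 h medians lay between 15.1 and 23.0 (median 16.9), against 17.8 to 29.40 in naive retinas (median 26.8). The single 18 h retina of experiment 2 had 31.6, against 23.3 to 27.4 in the naive retinas of that experiment.

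**Figure D1:**
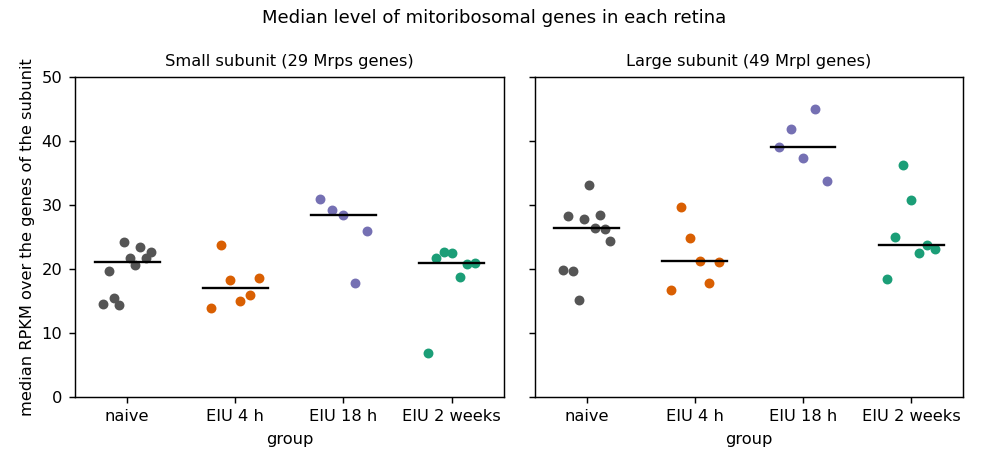
Median RPKM over the 29 small subunit genes (left) and the 49 large subunit genes (right) in each retina; each point is 1 retina, lines are group medians. For the large subunit the 18 h retinas sit between 33.8 and 45.0, and for the small subunit between 17.8 and 30.9, where the lowest is replicate 4, a retina with fewer than 8000 genes detected.

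By subunit, the per-retina median of the large subunit was 39.0, 41.9, 37.3, 45.0 and 33.8 RPKM at 18 h, against 15.1 to 33.1 in naive retinas (median 26.4). The lowest 18 h value stood just above the highest naive value, and with equal sums 3 of the 5 retinas were above the naive range. The median of the small subunit was 30.9, 29.2, 28.5, 17.8 and 26.0 RPKM at 18 h, against 14.3 to 24.2 in naive retinas (median 21.1). All 18 h retinas but replicate 4 lay above the naive range, and with equal sums replicate 1 alone did. The ratio of the summed RPKM of the small to that of the large subunit had medians of 0.599 at 4 h, 0.601 at 18 h, 0.629 after 2 weeks and 0.641 without injection, with ranges that overlapped between all groups (0.491 to 1.26 in naive retinas).

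Each gene was then compared with naive retinas by limma, fitted once to log2(RPKM + 1) of all 4 groups and 13164 genes, with Benjamini-Hochberg adjustment. A gene was called where the adjusted p was at most 0.05 and the fold change at least 2. On this scale the changes of genes with low values are understated. All comparisons with naive retinas share those 10 retinas.

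At 4 h, 3 of the 78 genes fell and none rose. The genes that fell were Mrpl24, Mrps25 and Mrps36, which is 3.85% of the members, against 4.39% of all genes tested called lower and 3.68% called higher. At an unadjusted p under 0.05, 15 members were lower (19.2%, all genes 13%) and 3 higher (3.85%, all genes 7.51%), and a linear model on untransformed RPKM, with the pooled variance of each gene, called 1 lower and 0 higher. Values were above 0 for 32 members, 41% of them, against 43.3% of all genes. The 4 h and naive groups overlapped for all 78 members, where 1.65% of all genes lay entirely higher and 1.42% entirely lower.

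Mrpl24, a large-subunit protein with a bacterial homologue near the exit of the peptide tunnel (chromosome 3, 87919506 to 87923672, plus strand), had between 9.72 and 55.3 RPKM in naive retinas (median 27.3). At 4 h it had between 9.05 and 14.5 RPKM (median 11.5). Of the 10 naive retinas, replicate 4 alone fell within the 4 h range. Its log2 fold change was -1.16 (SE 0.299, adjusted p = 0.00995 from limma), and -1.11 and -1.22 with the retinas of experiment 1 and of experiment 2 alone. Exons of Mrpl24 overlap those of Rrnad1 on the other strand.

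Mrps25, a small-subunit protein found in mitochondria and not in bacteria (chromosome 6, 92169525 to 92184033, minus strand), had 4.80 to 11.9 RPKM in naive retinas (median 8.57) and 1.44 to 4.89 RPKM at 4 h (median 4.14). One naive retina, replicate 1, stood within the 4 h range. The log2 fold change was -1.001 (SE 0.324, adjusted p = 0.0487 from limma), at the edge of both thresholds. Leaving out single retinas lost the call in 20 of 28 cases. Its exons overlap those of Nr2c2 on the other strand.

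Mrps36 (chromosome 13, 100735955 to 100744659, minus strand) carries a ribosomal name, but its product is now regarded as a subunit of the oxoglutarate dehydrogenase complex. It had 18.5 to 152 RPKM in naive retinas (median 61.0) and 14.6 to 34.8 RPKM at 4 h (median 34.1). Naive replicate 1 was again the only naive retina within the 4 h range. The log2 fold change was -1.19 (SE 0.372, adjusted p = 0.0395 from limma). It was -1.42 in experiment 1 and -0.89 in experiment 2, and the call was lost without any one of naive replicates 2, 4, 5, 6 and 9 or of EIU 4 h replicates 1, 2, 3 and 5.

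Other members with large differences at 4 h did not pass the test. In the small subunit, Mrps33 had a log2 fold change of -1.13 (adjusted p = 0.266 from limma) and Mrps14 of -1.05 (adjusted p = 0.108 from limma). In the large subunit, Mrpl42 had -1.77 (adjusted p = 0.128 from limma) and Mrpl23 -1.45 (adjusted p = 0.0667 from limma). For Mrpl42, the values at 4 h were 12.03 to 84.0 RPKM (median 32.2) within a naive range of 20.7 to 551. The most positive values were those of Mrps7 (1.02), Mrps18b (0.89) and Mrps34 (0.81) in the small subunit and of Mrpl16 (1.40), Mrpl4 (1.16) and Mrpl52 (1.03) in the large subunit, with adjusted p from limma between 0.0756 and 0.563. Mrps34 turned negative without the 4 retinas of few detected genes (-0.14).

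The median log2 fold change at 4 h was -0.19 over all members, -0.30 over the small and -0.08 over the large subunit, beside -0.11 over all genes tested. Placed by ribosome structure, the subunits had medians of -0.36 and -0.02. Experiment 1 alone gave 0.10 over all members and experiment 2 alone -0.36, so the sign of the 4 h median differed between the experiments. The median over all genes was also lower in experiment 2, at -0.26 against -0.05 in experiment 1. No member passed the test of a difference between the experiments at 4 h or at 2 weeks in limma (1 and 2 members at an unadjusted p under 0.05, adjusted p = 1). Divided into equal parts by naive level, the members with 38.7 to 322 RPKM had a median of -0.56, those with 18.1 to 37.7 RPKM a median of -0.05 and those with 2.12 to 17.6 RPKM a median of 0.21. All genes tested within these ranges of level had medians of -0.36, -0.12 and -0.16. Both medians were most negative at the highest levels. Rod markers had a median of 0.71 at 4 h, with 7 of 10 above 0 and 0 called, and their part in the values at 4 h was not tested.

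**Figure D2:**
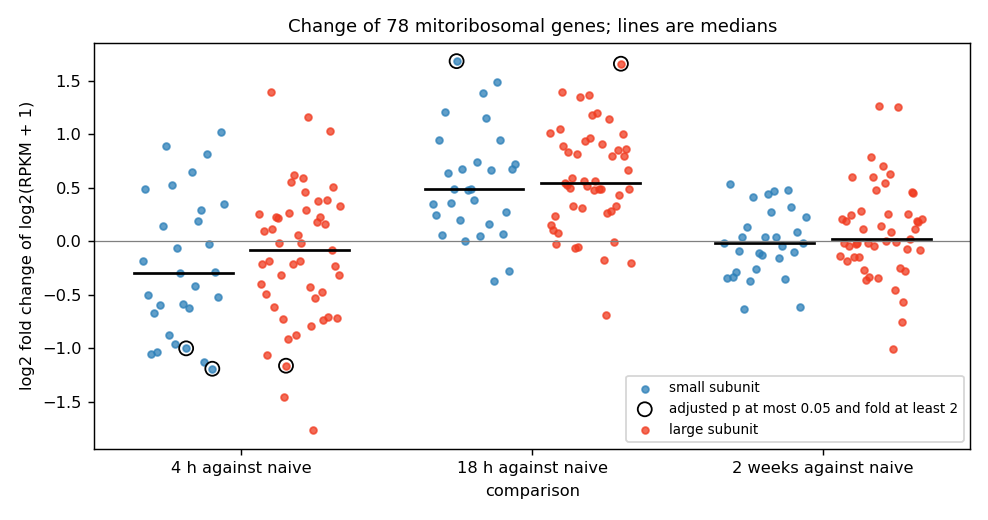
Log2 fold change of log2(RPKM + 1) against naive retinas for each of the 78 genes in the 3 EIU groups, small subunit in blue and large subunit in red; lines are medians and circles mark the genes that passed the test. At 18 h, 69 of the 78 points lie above 0, against 32 at 4 h and 39 at 2 weeks.

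At 18 h, 2 of the 78 genes rose, Mrpl52 and Mrps18b, and none fell. This is 2.56% of the members, against 2.84% of all genes tested called higher and 1.85% called lower. At an unadjusted p under 0.05, 16 members were higher (20.5%, all genes 8.55%), 5 of the small and 11 of the large subunit, and 0 were lower (all genes 8.93%). The model on untransformed RPKM called 2 higher and 0 lower. The log2 fold change was above 0 for 69 of the 78 genes (88.5%), against 45.1% of all genes, in 27 of 29 genes of the small and 42 of 49 of the large subunit.

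Mrpl52, a large-subunit protein without a bacterial counterpart (chromosome 14, 54426909 to 54429756, plus strand), had 13.5 to 68.04 RPKM in naive retinas (median 37.0). At 18 h it had 122, 113, 127, 76.2 and 104 RPKM, all above the highest naive retina. At 4 h it stood in between, at 48.0 to 118 RPKM (median 61.9), and at 2 weeks it was back at 15.0 to 104 RPKM (median 45.1). The log2 fold change at 18 h was 1.66 (SE 0.384, adjusted p = 0.00745 from limma). It was 2.09 in experiment 1 and 0.99 in experiment 2, which has 1 retina at 18 h.

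Mrps18b (chromosome 17, 35910379 to 35916389, minus strand) is one of 3 mammalian relatives of bacterial protein S18. It had 3.87 to 56.0 RPKM in naive retinas (median 34.0), 35.5 to 84.5 RPKM at 4 h (median 49.5) and 6.86 to 85.2 RPKM at 2 weeks (median 34.1). At 18 h it had 92.0, 87.4, 93.7, 88.2 and 87.2 RPKM, a narrow range that stood above every other retina of the series. With equal sums it stayed above the naive retinas but overlapped with 4 h. On the log2 scale the change at 18 h was 1.68 (SE 0.452, adjusted p = 0.0235 from limma), 1.93 in experiment 1 and 1.28 in experiment 2. The adjusted p from limma rose to between 0.0529 and 0.0629 without any one of EIU 18 h replicates 1, 2, 3 and 5, and to 0.0608 where retinas were rescaled to equal summed RPKM.

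The other relatives of S18 had smaller values. Mrps18a, which sits in the large subunit of the mammalian mitochondrial ribosome despite its name, had a log2 fold change of 0.49 at 18 h (adjusted p = 0.655 from limma), with 31.2, 28.5, 31.8, 20.1 and 25.6 RPKM against 12.3 to 23.5 in naive retinas. Mrps18c had 0.19 (adjusted p = 0.913 from limma), with 110, 175, 99.6, 737 and 122 RPKM against 29.3 to 640. Only for Mrps18b were the 18 h and naive groups apart, and whether the 3 genes differ in their change was not tested. Mrps30, the other Mrps gene whose product sits in the large subunit, had 13.1, 12.8, 9.41, 0.106 and 5.00 RPKM at 18 h against 0.0320 to 21.1 (log2 fold change 0.16).

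Groups did not overlap at 18 h for 4 members, Mrpl45, Mrpl52, Mrpl57 and Mrps18b, all of them higher than naive (5.13%, all genes 2.05%), and no member lay entirely below (all genes 1.3%). With equal sums this held for 1 member, Mrps18b. Mrpl45 had 33.4, 47.5, 37.8, 45.0 and 33.8 RPKM at 18 h against 0.0452 to 33.1 in naive retinas, with a log2 fold change of 1.14 that did not pass the test (adjusted p = 0.392 from limma). A log2 fold change of at least 1 was measured for 15 members at 18 h, 5 of the small and 10 of the large subunit, and of -1 or less for 0. The shares of all genes past these marks were not counted. The upper quartile of the log2 fold change was 0.90 over the members and 0.37 over all genes tested. After the genes called, the largest log2 fold changes were those of Mrps34 (1.48), Mrps27 (1.38), Mrpl16 (1.40) and Mrpl34 (1.37), with adjusted p from limma between 0.177 and 0.295. Their lowest naive values were, in this order, 6.54e-21, 0.0743, 0 and 0.193 RPKM. Leaving out single retinas gave 1.04 to 1.69, 1.08 to 1.57, 0.91 to 1.58 and 0.78 to 1.54. The most negative log2 fold changes at 18 h were those of Mrpl43 (-0.69), Mrps33 (-0.38), Mrps6 (-0.28), Mrpl9 (-0.20) and Mrpl42 (-0.18), while Mrps21 was at 0.01.

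For several of these genes 1 retina set the value. Mrpl43 had 49.97, 56.8, 53.8, 0.218 and 50.9 RPKM at 18 h, against 15.9 to 54.5 in naive retinas, and its log2 fold change was 0.40 without EIU 18 h replicate 4. Mrps6 had 46.9, 40.1, 43.3, 0.167 and 37.6 RPKM at 18 h. Its naive values were 0 in replicate 5 and 17.3 to 48.6 RPKM in the others, a range that holds the 18 h values apart from replicate 4. The log2 fold change of Mrps6 was 0.76 without EIU 18 h replicate 4. Mrpl12, a large-subunit stalk protein with a bacterial homologue, had 103, 63.3, 75.6, 0.115 and 73.8 RPKM against 10.1 to 41.8 in naive retinas (median 31.5). Apart from replicate 4, all 18 h values of Mrpl12 lay above the naive range. Its log2 fold change was 0.24 with all retinas (adjusted p = 0.896 from limma). Without the 4 retinas of few detected genes, Mrpl12 was among the 4 members called higher at 18 h, with Mrpl52, Mrps18b and Mrps27. In that setting 4.03% of all genes were called higher at 18 h. Replicate 4 was also the highest 18 h retina for the abundant genes Mrps33 (717 RPKM), Mrpl42 (621 RPKM) and Mrpl27 (591 RPKM).

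**Figure D3:**
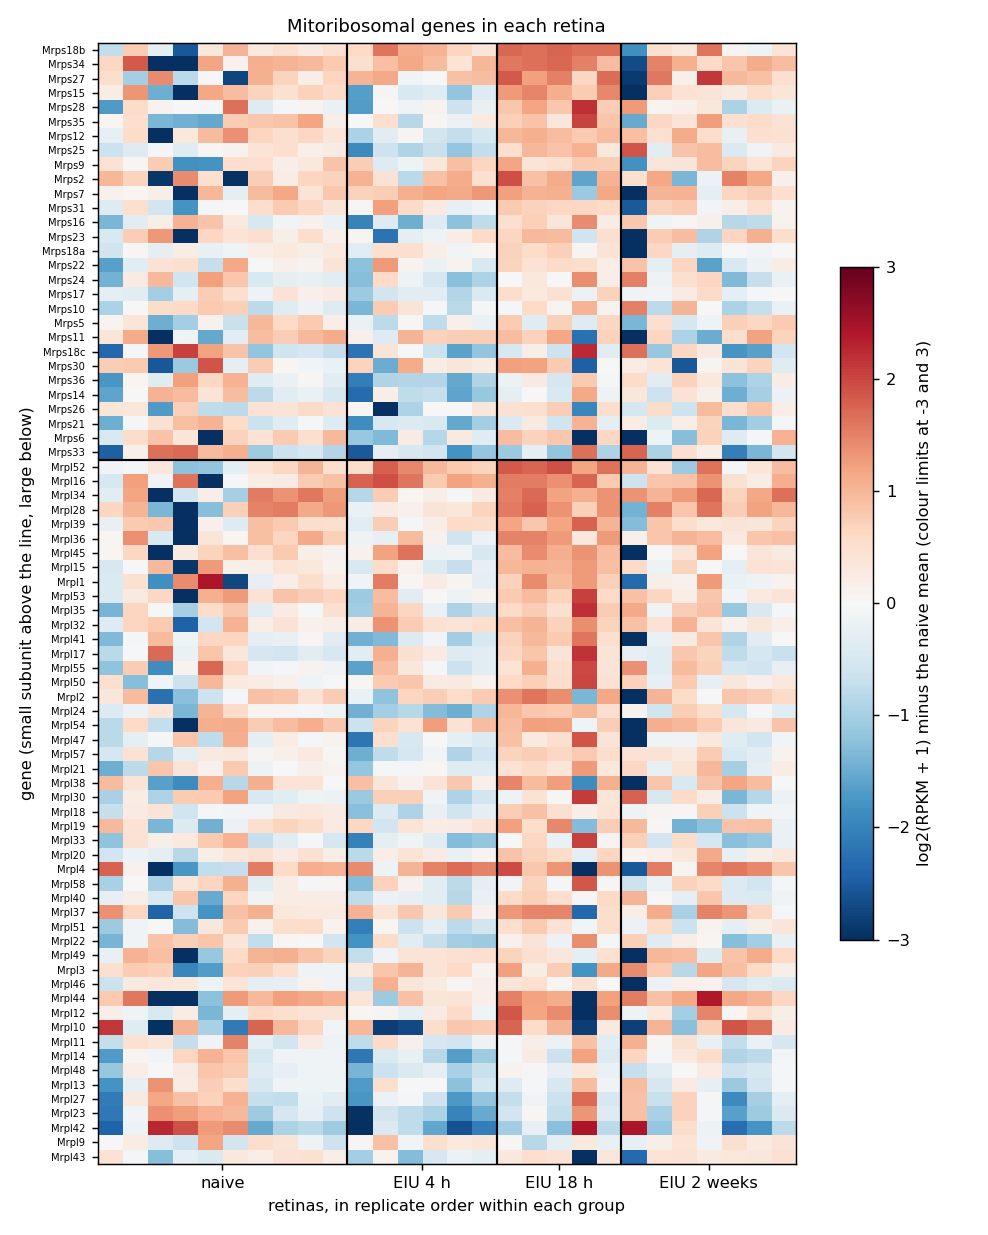
log2(RPKM + 1) minus the naive mean for each gene (rows, ordered by log2 fold change at 18 h within each subunit) and retina (columns); colour limits are -3 and 3. The 18 h columns are red for most genes, and naive replicates 3 and 4, EIU 18 h replicate 4 and EIU 2-week replicate 1 hold most of the dark blue cells.

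The median log2 fold change at 18 h was 0.52 over all members, 0.49 over the small and 0.54 over the large subunit, beside -0.08 over all genes tested. Over all members it was 0.73 in experiment 1 and 0.27 in experiment 2, beside 0.07 and -0.19 over all genes. Without the 4 retinas of few detected genes it was 0.52 over all members and -0.10 over all genes. By naive level, medians were 0.36, 0.66 and 0.51 from the highest to the lowest part, beside 0.24, 0.17 and -0.14 for all genes in the same ranges. With the genes placed by ribosome structure (26 small, 51 large, Mrps36 left out), the medians were 0.56 and 0.53. With all retinas rescaled to an equal sum, the median over members was 0.25, with 57 of 78 above 0, and that over all genes moved from -0.08 to -0.26. The members thus stood 0.60 above the median of all genes before and 0.51 above it after rescaling. Over 10 rod markers the median at 18 h was -0.44, and over 7 Müller glia markers it was -0.99, with 1 called lower in each list, and their part in the result was not tested.

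The direct comparison of 18 h with 4 h asked whether the inflamed time points differ. Of the 78 genes, 6 were higher at 18 h and none lower, 3 of each subunit. This is 7.69% of the members, against 2.92% of all genes called higher and 2.51% called lower. Among all genes within the highest, middle and lowest range of member levels, 12.2%, 6.53% and 1.65% were called higher, against 2 of 26 members in each range (7.69%). At an unadjusted p under 0.05, 25 members were higher (32.1%, all genes 9.91%) and 0 lower (all genes 6.4%). The model on untransformed RPKM called 14 higher and 0 lower. All values of 18 h lay above all values of 4 h for 19 members (24.4%, all genes 4.84%), 8 of the small and 11 of the large subunit, and below them for 0 (all genes 2.79%).

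Mrpl24 was the member with the smallest p. It had 54.2, 47.4, 46.8, 54.5 and 38.3 RPKM at 18 h against at most 14.5 at 4 h (log2 difference 1.98, SE 0.351, adjusted p = 0.000353 from limma). Mrps25 had 11.8, 17.1, 15.4, 17.8 and 10.3 RPKM against at most 4.89 (1.74, SE 0.380, adjusted p = 0.0039 from limma). Both genes were thus called lower at 4 h than in naive retinas and higher at 18 h than at 4 h, while neither passed the test between 18 h and naive retinas (adjusted p = 0.154 and 0.253 from limma).

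Mrpl57, a short protein of the large subunit without a bacterial counterpart (chromosome 14, 57826234 to 57829296, plus strand), had 26.7, 27.8, 25.8, 28.9 and 24.3 RPKM at 18 h, 5.32 to 15.4 at 4 h and 8.69 to 22.6 in naive retinas. The 18 h retinas lay above the 4 h and naive retinas and overlapped with those of 2 weeks (11.8 to 28.7 RPKM). With equal sums they overlapped with the naive retinas too. The log2 difference of Mrpl57 from 4 h was 1.39 (SE 0.318, adjusted p = 0.00637 from limma). Mrps16 (chromosome 14, 20389304 to 20393634, minus strand), a small-subunit protein with a bacterial homologue, had 30.9, 36.7, 28.5, 60.1 and 26.0 RPKM at 18 h against 4.74 to 16.6 at 4 h (1.68, SE 0.404, adjusted p = 0.00975 from limma). Its naive values, 7.90 to 46.0 RPKM, overlapped with both groups.

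Mrpl18 (chromosome 17, 12911349 to 12916345, minus strand), a large-subunit protein with a bacterial homologue that binds 5S ribosomal RNA in bacteria, had 119, 131, 100, 82.0 and 95.7 RPKM at 18 h against 29.2 to 60.8 at 4 h (1.16, SE 0.295, adjusted p = 0.0151 from limma). Without EIU 18 h replicate 2 its adjusted p from limma was 0.0549. Mrps28 (chromosome 3, 8802146 to 8923918, minus strand), a small-subunit protein, had 133, 172, 132, 346 and 126 RPKM at 18 h against 22.8 to 80.5 at 4 h (1.57, SE 0.444, adjusted p = 0.0303 from limma). Its call was lost without any one of EIU 4 h replicates 1 and 5 or EIU 18 h replicates 2 and 4. Within experiment 1 the differences of these 6 genes, which were chosen on the same retinas, ran from 1.44 to 2.02 on the log2 scale. In experiment 2, with 1 retina at 18 h, they ran from 0.78 to 1.72. No member was called between 18 h and 4 h with experiment 1 alone, where 0.486% of all genes were called higher and 1.05% lower.

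**Figure D4:**
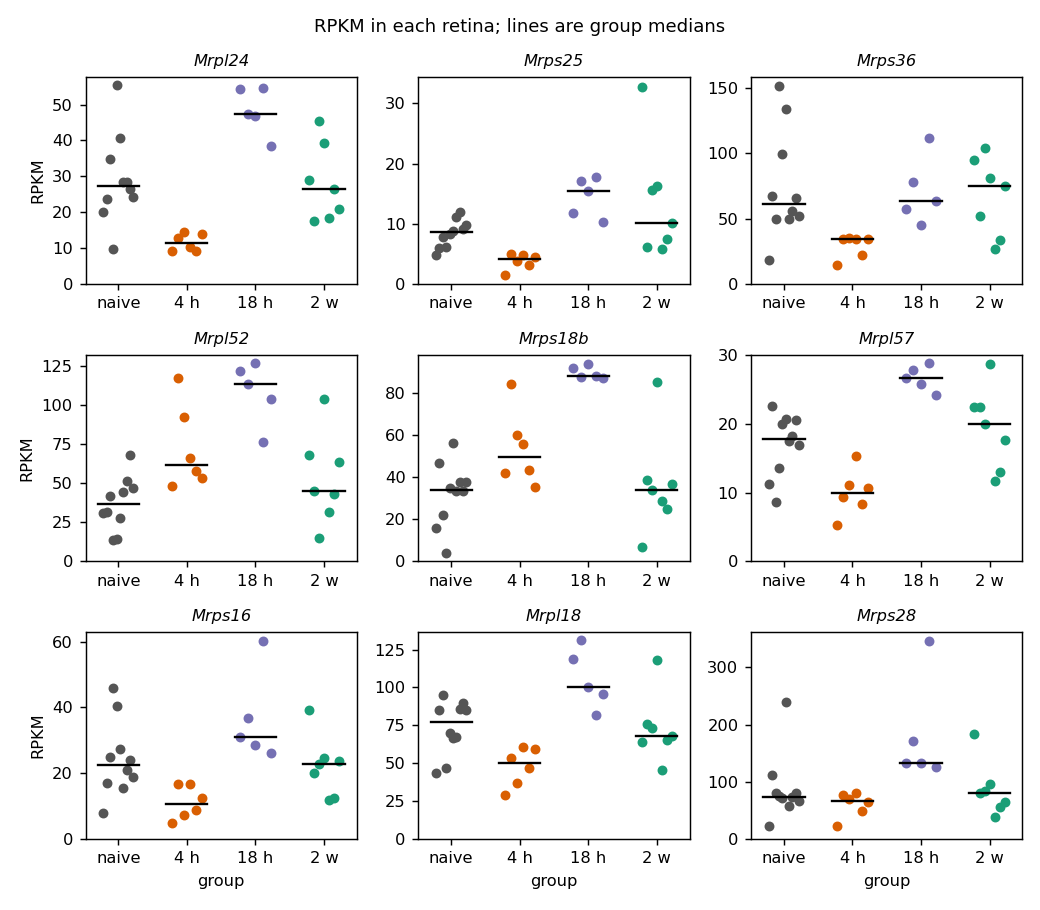
RPKM in each retina of the 9 genes called in at least 1 comparison; each point is 1 retina, lines are group medians, and each panel has its own vertical axis from 0. Mrps18b at 18 h spans 87.2 to 93.7, above all other retinas, and Mrpl24 at 4 h spans 9.05 to 14.5, below all 18 h retinas.

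Over all members the median log2 difference between 18 h and 4 h was 0.77, with 0.76 in the small and 0.77 in the large subunit, beside 0.02 over all genes tested, and 69 of 78 were above 0 (88.5%, all genes 51.5%). From the highest to the lowest level, the members had medians of 1.09, 0.77 and 0.50, with 25, 24 and 20 of 26 above 0. All genes in these ranges had medians of 0.61, 0.38 and 0.01, with 77.1%, 66.4% and 50.6% above 0. Over all members the median was 0.77 in experiment 1, 0.71 in experiment 2 and 0.72 after rescaling to equal summed RPKM. Over all genes it was 0.11, 0.08 and 0.0009 in these settings. Seen over both time points, 38 members were below naive at 4 h and above naive at 18 h, 31 were above at both, 8 below at both and 1 above at 4 h and below at 18 h. In the small subunit these numbers were 17, 10, 2 and 0. The shares of all genes with these patterns were not counted, and every sign rests on the same 10 naive retinas. Taken singly, 43.3% of all genes were above naive at 4 h and 45.1% at 18 h. Between 18 h and 4 h the rod markers had a median of -0.97, with 0 of 10 above 0 and 0 called, and the Müller glia markers of -0.80, with 1 of 7 called lower. Their part in the difference was not tested.

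At 2 weeks, limma called 0 members in either direction, where 0.0076% of all genes tested were called higher and 0% lower, and the model on untransformed RPKM also called 0. At an unadjusted p under 0.05, 1 member was higher (1.28%, all genes 2%) and 0 were lower (all genes 0.874%). The former was Mrpl34, with 71.2 to 150 RPKM at 2 weeks (median 110) and 0.193 to 137 in naive retinas (median 76.9), and a log2 fold change of 1.26 (adjusted p = 1 from limma). The 2 groups overlapped. The median log2 fold change was -0.003 over all members, -0.01 over the small and 0.02 over the large subunit, beside 0.07 over all genes. Of the 78 genes, 39 were above 0 (50%, all genes 57.4%). Experiment 1 alone gave a median of 0.19 and experiment 2 alone -0.26, beside 0.06 and 0.04 over all genes. No groups were apart for any member.

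The other components of mitochondrial translation were taken from lists of known genes. Of 5 structural proteins of the mitochondrial ribosome without an Mrp symbol, none was called against naive retinas at 4 h or 18 h, and all 5 were above 0 at 18 h (median 0.80). Chchd1, a small-subunit protein, was higher at 18 h than at 4 h (1.53, SE 0.424, adjusted p = 0.0264 from limma), with means of 185 ± 95.1 (SD, n = 5) and 63.9 ± 24.7 RPKM (SD, n = 6). Of 10 translation factors, 2 fell at 4 h and none rose. Gfm2, a factor of ribosome recycling, fell from 15.4 to 29.7 RPKM in naive retinas to 3.36 to 6.43 at 4 h, with no overlap (log2 fold change -1.86, SE 0.254, adjusted p = 3.6e-06 from limma). At 18 h its level was 6.03 to 13.9 RPKM, also below all naive retinas, with an adjusted p of 0.0292 from limma but a log2 fold change of -0.97, short of a fold of 2. Mtif2, the initiation factor, had 9.84 to 26.4 RPKM in naive retinas and 3.33 to 10.1 at 4 h (-1.02, SE 0.270, adjusted p = 0.0127 from limma).

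Of 25 genes for assembly of the mitochondrial ribosome and modification of its RNA, 1 fell at 4 h and none at 18 h. This was Ngrn, which takes part in the handling of the large ribosomal RNA, with 23.1 to 74.8 RPKM in naive retinas and 10.8 to 30.1 at 4 h (-1.15, SE 0.294, adjusted p = 0.00965 from limma). The 14 mitochondrial aminoacyl-tRNA synthetases tested and the 13 regulators of mitochondrial transcription and biogenesis had no call at 4 h or at 18 h. Their median log2 fold changes at 18 h were 0.10 and -0.13.

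Set beside related lists, the members at 18 h (median 0.52) lay between the cytosolic ribosomal proteins, with a median of 1.12 and 39 of 81 called higher, and the nuclear subunits of oxidative phosphorylation, with a median of 0.26 and 0 of 81 called. The 13 proteins encoded in the mitochondrial genome, which mitochondrial ribosomes translate, had a median of -0.46 at 18 h, with 0 of 13 above 0 and 0 called. At 4 h the medians of these lists were 0.14, -0.40 and -0.16. Whether the lists differ from each other was not tested.

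**Figure D5:**
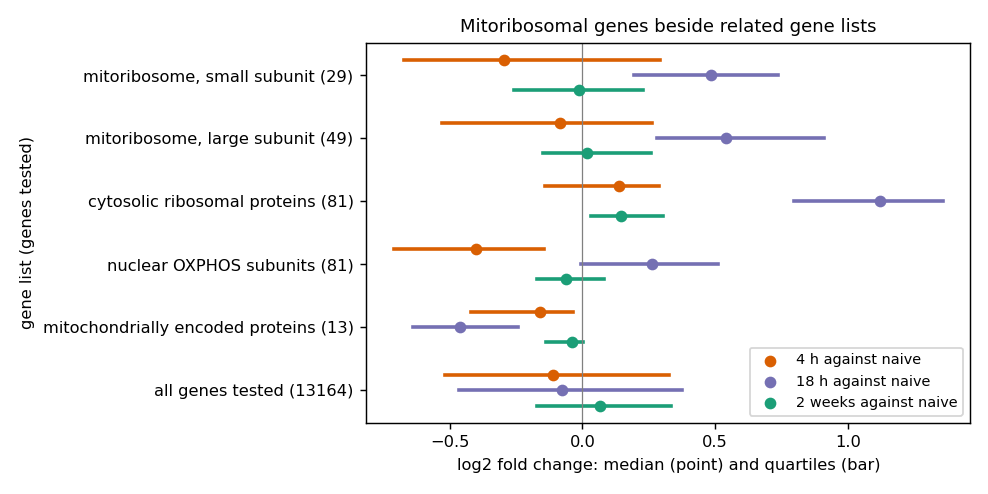
Median (point) and quartiles (bar) of the log2 fold change against naive retinas in the 3 EIU groups for both subunits of the mitochondrial ribosome, 3 related gene lists and all 13164 genes tested. At 18 h both subunits (0.49 and 0.54) lie between cytosolic ribosomal proteins (1.12) and mitochondrially encoded proteins (-0.46).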

How the data were processed

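RNA of sorted retinal microglia was sequenced after SMART-Seq v4 amplification and Nextera XT preparation, which does not keep strand. The authors demultiplexed with bcl2fastq 2.20, aligned with STAR 2.5.3a to mm10, quantified Ensembl genes in Partek and deposited RPKM values per gene and retina. Their 2 tables of called genes (p-values, ratios, fold changes) were not used. Read counts were not used here.

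Genes with at least 1 RPKM in at least 5 of 28 retinas were kept (13164 of 40021). log2(RPKM + 1) was fitted with limma 3.58.1 in R 4.3.3, with 1 term per group and a mean-variance trend, and p-values were adjusted by Benjamini-Hochberg over all genes tested. Between any pair of retinas at most 2 values above 0 were identical. Named members were those called, the 3 highest and 3 lowest log2 fold changes per subunit at 4 h and at 18 h, the 3 most abundant per subunit, and a few whose values were singled out after they were seen (Mrps18a, Mrps30, Mrpl12 and Mrpl45 among them). Members and gene lists were chosen with earlier results of these data known. Annotation came from GENCODE M21 and promoters from RefSeq. Alternatives were other pseudocounts, filters, scalings, covariates, subsets of retinas and a replicate block.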

Additional observations from a re-analysis of the deposited data

Results flagged for a closer look

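A retina far from the others of its group was looked for in 128 combinations of a group with a gene or a subunit median, and 28 were found. The genes found are among those named above, many of them for calls or extreme fold changes in these same values. The rate of about 5% that chance gives is therefore no yardstick for this number. Of the 28, 21 lay in the 4 retinas with fewer than 8000 genes detected. In EIU 18 h replicate 4, Mrpl12 (0.115 RPKM), Mrpl4 (0), Mrpl43 (0.218), Mrps6 (0.167) and Mrps7 (8.72) were far below the other retinas, and Mrpl27 (591 RPKM), Mrpl42 (621), Mrps14 (207) and Mrps18c (737) far above. In EIU 2-week replicate 1, the low values were those of Mrpl4 (0.347 RPKM), Mrpl41 (0), Mrpl43 (7.16), Mrps18a (0), Mrps27 (0), Mrps34 (1.42) and Mrps7 (0.531), and the median log2(RPKM + 1) of the small subunit was 2.97. In naive replicate 3 they were Mrpl34 (0.193 RPKM) and Mrpl43 (15.9), and in naive replicate 4 Mrps18b (3.87 RPKM) and Mrps7 (0).

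The remaining low values were Mrpl16 and Mrps6 in naive replicate 5 (both 0 RPKM), Mrps36 in naive replicate 1 (18.5 RPKM), Mrpl4 (6.13 RPKM) and Mrps30 (1.13 RPKM) in EIU 4 h replicate 2, Mrps30 in EIU 2-week replicate 3 (0.0323 RPKM) and Mrps34 in EIU 18 h replicate 5 (28.6 RPKM).

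The change from naive differed between 18 h and 4 h, by limma's test of that difference, for Mrpl18 (1.16 on the log2 scale), Mrpl24 (1.98), Mrpl57 (1.39), Mrps16 (1.68), Mrps25 (1.74) and Mrps28 (1.57).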

How the results depend on the processing

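The number of members called higher at 4 h, 0 in the report, was 1 with quantile normalisation, 2 with the number of detected genes as a covariate, 1 with the replicate block and 1 without the 4 retinas of few detected genes. The number called lower at 4 h, 3 in the report, was 0 with a pseudocount of 10 or experiment 1 alone, 1 with no filter, quantile normalisation, untransformed RPKM or the groups compared alone, 5 without the 4 retinas, 6 with experiment 2 alone, 9 with the detected-genes covariate and 10 with equal summed RPKM. The number called higher at 18 h, 2 in the report, was 0 with experiment 2 alone or with its naive retinas as the only controls (a setting chosen after seeing the data), 1 with no filter, equal summed RPKM or experiment 1 alone, 4 without the 4 retinas and 7 with the covariate. The 6 members higher at 18 h than at 4 h became 0 with experiment 1 alone, 3 with quantile normalisation, 12 with the covariate, 13 with the naive retinas of experiment 2 as controls, 14 with untransformed RPKM or the groups compared alone, and 17 without the 4 retinas. The median of the small subunit at 18 h was 0.18 with equal summed RPKM and with experiment 2 alone. With equal sums, a scaling chosen for these counts after seeing the data, the 18 h retinas above every naive retina by their median fell from 4 to 1 for the small and from 5 to 3 for the large subunit, those above every other retina by their median over all members from 5 to 0, and the members with 18 h entirely above naive from 4 to 1. The cause of these shifts was not tested. With equal summed RPKM, 3.11% of all genes were called higher and 7.61% lower at 4 h, and 1.72% and 3.58% at 18 h. The share of all genes called also moved in other settings. Without the 4 retinas, 3.88% were higher and 7.44% lower at 4 h. There, 4.03% were higher at 18 h and 6.55% higher at 18 h than at 4 h. These shares were 5.57%, 6.77%, 6.97% and 6.43% with the covariate. With experiment 1 alone they were 2.29%, 1.19%, 1.17% and 0.486%. Quantile normalisation gave 4.75%, 4.16%, 2.83% and 2.43%, and the naive retinas of experiment 2 as controls gave 2.58%, 5.11%, 1.42% and 4.83%. For 4 h against naive with experiment 2 alone, which has 3 and 4 retinas in these groups, 8.41% of all genes were lower. The main fit gave 3.68%, 4.39%, 2.84% and 2.92%.

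Leaving out each retina in turn gave 0 to 1 members higher at 4 h (1 without naive replicate 9 or EIU 2-week replicate 3), 1 to 8 lower at 4 h (8 without naive replicate 1, and 1 without naive replicates 5, 6 or 9 or EIU 4 h replicates 1, 3 or 5) and 1 to 3 higher at 18 h (1 without EIU 18 h replicates 1, 2, 3 or 5). The number higher at 18 h than at 4 h ran from 4 to 8. Over all members the median ran from -0.29 to -0.02 at 4 h and from 0.46 to 0.67 at 18 h. Adjusted p from limma reached 0.162 for Mrps25 at 4 h and 0.129 for Mrps36.

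The sign of single members that passed no test turned in some settings. Mrps34 at 4 h was -0.18 with experiment 2 alone, -0.14 without the 4 retinas and -0.15 with the naive retinas of experiment 2 as controls. At 18 h, Mrps34 was -0.043 with experiment 2 alone, Mrpl34 -0.076 with experiment 2 alone and -0.065 with its naive retinas as controls, Mrps33 0.40 with those controls, and Mrpl42 0.30 and 0.90 in these settings (-0.83 to 0.090 leaving out single retinas). Mrps6 was 0.038 with untransformed RPKM, 0.38 with the replicate block and 0.92 without the 4 retinas (-0.79 to 0.76 leaving out single retinas). Mrpl43 was 0.010 with untransformed RPKM, 0.030 with experiment 2 alone and 0.20 without the 4 retinas (-0.99 to 0.40). Mrps21 was -0.32 with equal summed RPKM and with quantile normalisation, -0.029 with untransformed RPKM, -0.11 with experiment and -0.15 with detected genes as a covariate, -0.19 with the replicate block, -0.16 with experiment 1 alone and -0.087 without the 4 retinas (-0.26 to 0.15).

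Replicate numbers are shared between groups. Of 23 same-numbered pairs, 9 had correlated deviations over 0.1 (range -0.33 to 0.70), and 5 retinas were best matched by their own number. This check does not settle whether the numbers pair the retinas. The paper describes littermate controls, randomised blocks and sorting in small blocks balanced over the groups. The labels do not name these blocks, and the main fit holds no term for them. With the replicate block, 1 member was higher (Mrpl52) and 2 lower (Mrpl23 and Mrpl24) at 4 h, so that Mrps25 (adjusted p = 0.22 from limma) and Mrps36 (adjusted p = 0.0741 from limma) were not called and Mrpl23 was gained. In the same fit 2 were higher at 18 h and 6 higher at 18 h than at 4 h. Of all genes, this fit called 4.29% higher and 3.88% lower at 4 h. It called 2.99% higher at 18 h and 2.07% higher at 18 h than at 4 h. Depth limits the lowest values, since 1 read is worth up to 0.157 RPKM at the median transcript length.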
